A study of Mus musculus with 8 samples.

Results

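The cytochrome P450 genes of mouse colon epithelium were compared between wild type (WT) and PIM1+/- mice. Members were all genes of the deposited table whose symbol reads Cyp, a family number, a subfamily letter and a gene number, which gave 94 of 55487 genes, in 16 families and 39 subfamilies. Cyp51, names carrying -ps for a pseudogene, and 6 symbols that end in a further letter fall outside that pattern. Bulk RNA of colon intestinal epithelial cells had been sequenced from 4 WT and 4 PIM1+/- libraries, both on the C57BL/6J strain. By the usual notation PIM1+/- mice are heterozygous for an altered allele of Pim1, a serine/threonine kinase gene, and the WT mice carry no such allele. The labels give the sample both as epithelial cells and, for the extraction, as tissue. They leave out the structure of the allele, age and sex, any treatment, and whether each library came from its own animal, so the p-values cover the spread among these libraries, which may be technical. Pim1 itself measured 7.80 ± 1.46 (SD) TPM in WT and 6.67 ± 1.12 TPM in PIM1+/- libraries (n = 4 each), with overlapping values (exact permutation p = 0.286, two-sided), so its transcript level did not separate the genotypes.

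P450 enzymes are haem proteins that insert an oxygen atom into lipophilic substrates, most of them in the endoplasmic reticulum, where the reductase Por hands them electrons, and some in mitochondria, where ferredoxin does. Families Cyp1 to Cyp3 are best known for foreign compounds, several Cyp2c, Cyp2j and Cyp4 enzymes for fatty acids and eicosanoids, and the higher-numbered families for sterols, steroid hormones, retinoic acid and vitamin D. In the gut wall they form a first barrier to compounds taken in from the lumen.

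Values are TPM, transcript abundances divided by gene length and scaled to a fixed sum per library, so levels can be compared between genes but the read depth behind them is unknown. Library sums ran from 990958 to 992187 TPM. Correlations across genes of log2(TPM + 1) were 0.976 to 0.983 within a genotype and 0.946 to 0.972 between genotypes (Pearson, over 12760 genes, which are not independent). Log2 fold changes are PIM1+/- over WT on the log2(TPM + 1) scale (± SE), which understates changes of low genes, and "rose" or "fell" marks a limma p below 0.05 after Benjamini-Hochberg adjustment over all 12760 tested genes. Epithelial identity was checked with absorptive colonocyte markers, all 12 of which were high enough to test, led by Car1 and Guca2a. Their summed level was 13169 to 17257 TPM in WT and 19552 to 23462 TPM in PIM1+/- libraries. Most of that difference was Car1, whose mean was 7135 ± 1698 TPM in WT and 12859 ± 1529 TPM in PIM1+/- libraries. Of these markers 5 (Vil1, Car1, Krt20, Slc9a3 and Ceacam1) rose and Car4 fell, while Guca2a, Slc26a3, Aqp8, Cdh1, Cdhr5 and Epcam did not pass.

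Most of the family was silent or close to it in this tissue. Of the 94 members 28 were listed at 0 in every library, another 37 were above 0 but too low to test, and 29 reached 1 TPM in at least 4 of the 8 libraries. No untested member went above 1.59 TPM in any library. The 3 Cyp1 genes, the classic targets of the aryl hydrocarbon receptor, stayed at or below 0.03 TPM. The 6 steroid hormone genes of families Cyp11, Cyp17, Cyp19 and Cyp21 stayed at or below 0.36 TPM, the 3 retinoic acid hydroxylases of Cyp26 at or below 0.06 TPM, and the 3 bile acid genes Cyp7a1, Cyp7b1 and Cyp8b1 at or below 0.07 TPM. The 14 members of Cyp2a, Cyp2b and Cyp4a, prominent in liver and kidney, did not exceed 0.44 TPM, nor 6 of the 7 Cyp3a genes 0.53 TPM. Cyp24a1 and Cyp27b1, which break down and activate vitamin D, reached at most 0.20 and 0.59 TPM.

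A few genes carried most of the signal. Cyp2c55, which oxidises arachidonic acid in mice, gave 51.6% of the summed mean TPM of all members, and the 4 most abundant genes (Cyp2c55, Cyp2c65, Cyp2d34 and Cyp4f14) gave 71.5%. Within single libraries Cyp2c55 took 46.5% to 54.4% of the family sum in WT and 45.4% to 53.8% in PIM1+/-. The sum over all members was 1962 ± 247 TPM in WT and 1736 ± 146 TPM in PIM1+/- libraries, with overlapping ranges and a ratio of means of 0.885. After rescaling without mitochondrial transcripts that ratio was 0.819. Without Cyp2c55 the sum was 941.9 ± 78.8 TPM in WT and 849.7 ± 40.0 TPM in PIM1+/- libraries, again with overlapping ranges. The total thus overlapped between genotypes, with a lower mean in PIM1+/- libraries, while its make-up differed gene by gene.

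**Figure D1:**
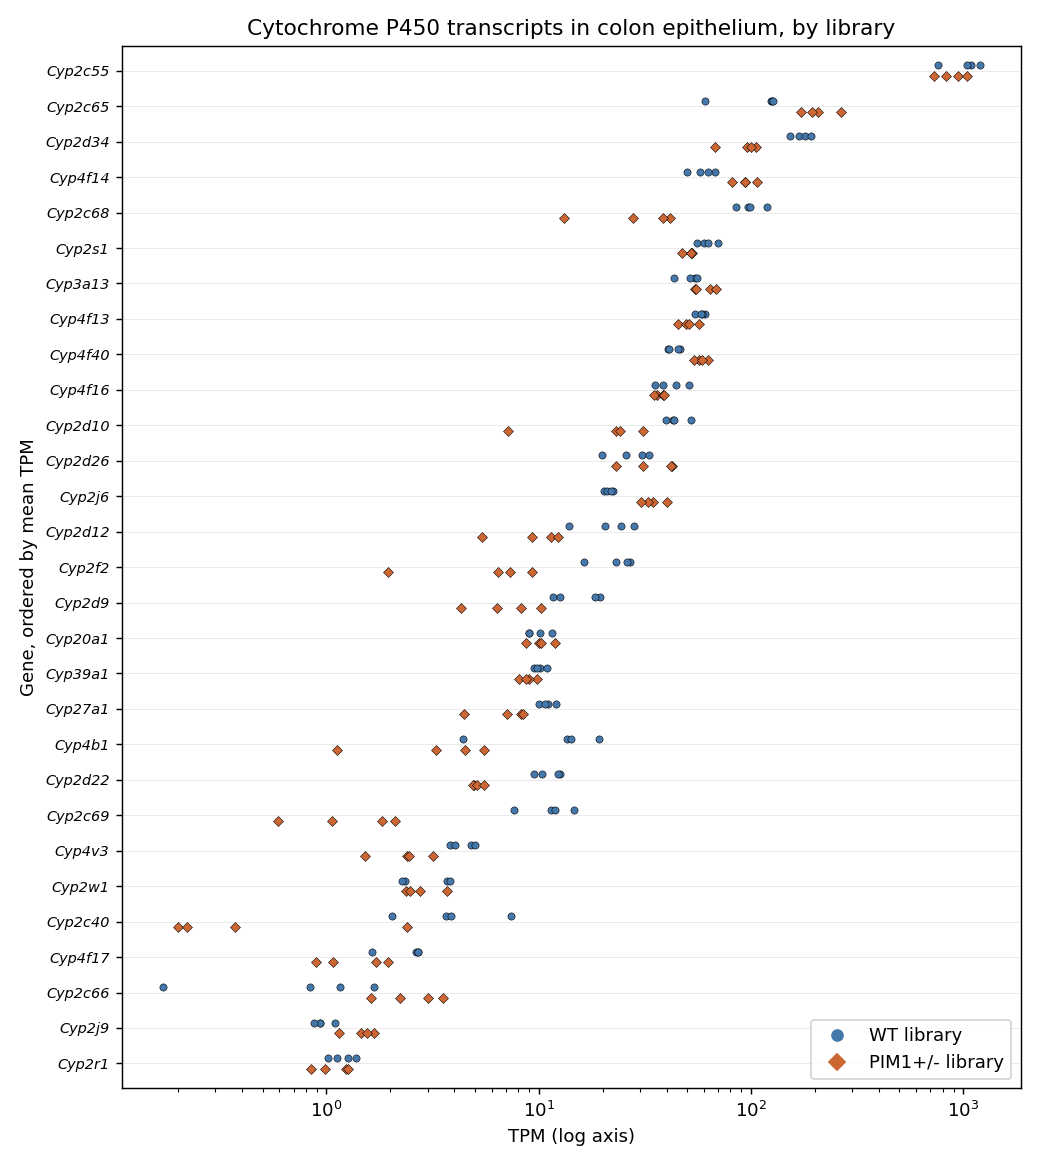
TPM of the 29 tested P450 genes in each of the 8 libraries (log axis), ordered by mean TPM, with circles for WT and diamonds for PIM1+/- libraries. Cyp2c55 lies highest in both genotypes, and the diamonds of Cyp2c68, Cyp2c69, Cyp2f2 and Cyp2d22 lie left of all circles of the same gene.

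Of the 29 tested members 5 rose, 12 fell and 12 did not pass. Over all tested genes 8.93% rose and 8.54% fell, so both counts were above those shares of 29, the falling ones by more. Near-identical copies count here as separate members, though reads may be shared among them. These are Cyp2c65 with Cyp2c66 among the rises, and Cyp2c68, Cyp2c40 and Cyp2c69 among the falls. In bulk RNA fewer cells of a type and less RNA per cell cannot be told apart. The median log2 fold change of the tested members was -0.20, against -0.01 for all tested genes. The libraries of the genotypes did not overlap for 5 members with PIM1+/- higher and 11 with PIM1+/- lower, against 11.9% and 11.6% of all tested genes. The filter on low values can let a gene enter through the genotype in which it is high, so these counts describe the tested members and not the whole family. When TPM were rescaled without mitochondrial transcripts, 4 members rose and 15 fell, and over all genes the share of calls that were rises went from 51.1% to 24.8%, with the median log2 fold change of all genes moving to -0.11. Falls over all genes numbered 2217 in that fit, against 1090 before rescaling. With upper quartile scaling 4 members rose and 13 fell, and the share of rises over all genes was 37.9%, with 1520 falls. The number of falling members dropped to 5 without WT replicate 1, to 6 without WT replicate 4 and to 6 without a filter. Falls over all genes dropped as well, from 1090 to 616, 689 and 666 in the same order. The number of rising members was 3 without PIM1+/- replicate 1 or 2 or a filter. In these fits rises over all genes went from 1139 to 829, 916 and 773. The calls of 8 genes, Cyp2c68, Cyp2c69, Cyp2d22, Cyp2d34, Cyp2f2, Cyp2j6, Cyp4f14 and Cyp4f40, held in all 8 fits that left out 1 library. The calls of the other 9, Cyp2c40, Cyp2c65, Cyp2c66, Cyp2d9, Cyp2d12, Cyp2s1, Cyp4b1, Cyp4v3 and Cyp27a1, were each lost without a filter (adjusted p from 0.0606 to 0.117).

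**Figure D2:**
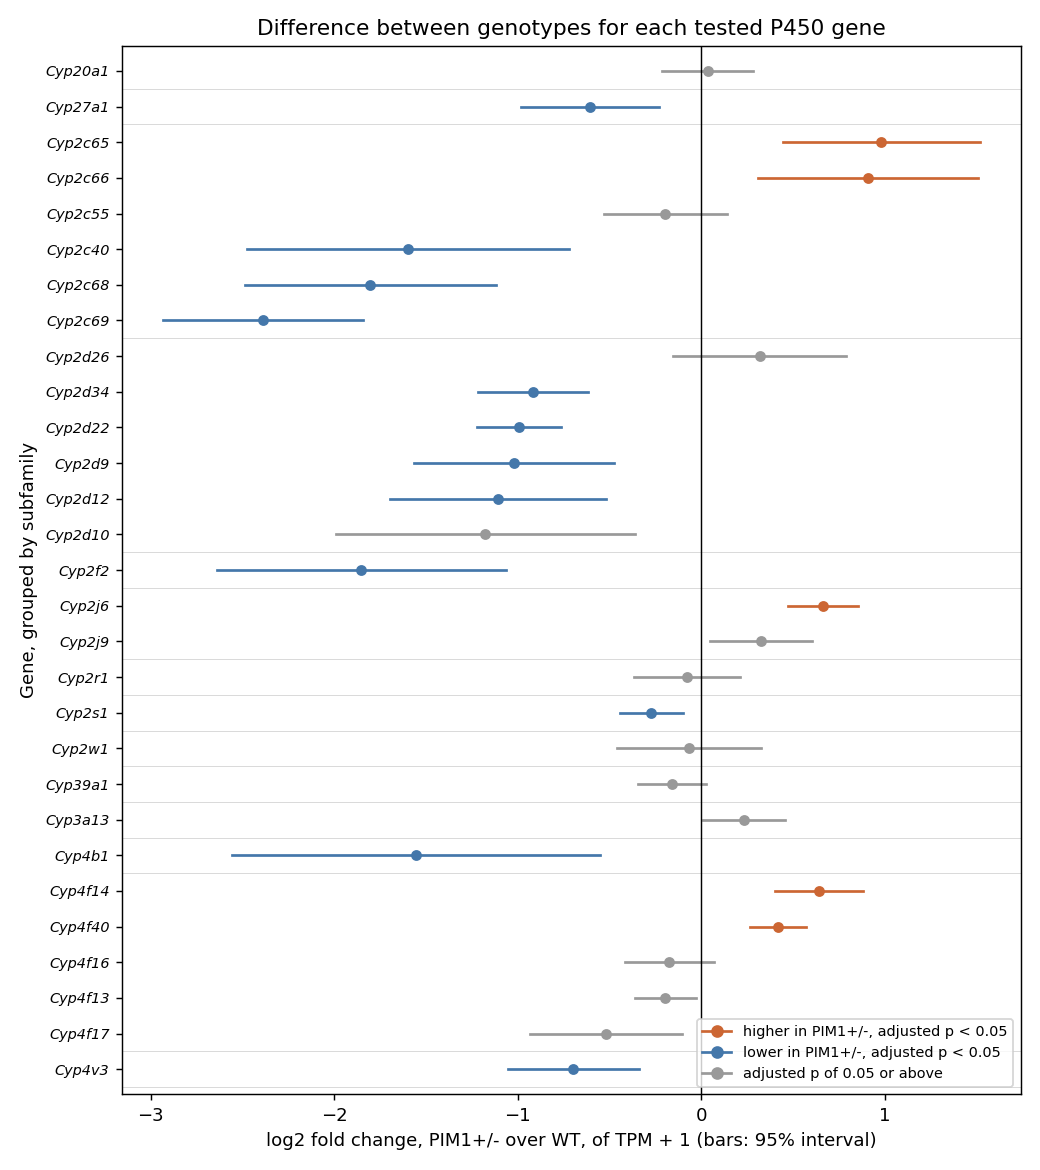
Log2 fold change (PIM1+/- over WT, on TPM + 1) of each tested P450 gene with its 95% interval from limma, grouped by subfamily and coloured by call. The 12 falling genes lie between -2.39 (Cyp2c69) and -0.27 (Cyp2s1), and the 5 rising genes between 0.42 (Cyp4f40) and 0.98 (Cyp2c65).

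The Cyp2c subfamily, whose enzymes oxidise drugs and arachidonic acid, has 15 members, of which 6 were at 0 everywhere and 6 were tested. Along chromosome 19 the tested genes were Cyp2c55, which did not pass, then 2 that rose, then 3 that fell. Those that moved alike are also near-identical copies, so gene order and sequence likeness cannot be told apart here. Cyp2c55, first in the row (ENSMUSG00000025002, chr19:39007019-39042693, GRCm38), had levels of 1085, 1039, 762 and 1195 TPM in the WT libraries, in replicate order here and throughout, and of 947, 728, 1038 and 831 TPM in the PIM1+/- libraries. These values overlap, and its log2 fold change of -0.20 ± 0.15 (95% interval -0.53 to 0.14, adjusted p = 0.4) did not pass.

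Its neighbours Cyp2c65 and Cyp2c66 rose. Cyp2c65 (ENSMUSG00000067231, chr19:39061015-39093944) measured 125, 125, 60.5 and 127 TPM in WT and 267, 207, 195 and 172 TPM in PIM1+/- libraries. Every PIM1+/- library was above every WT library, and WT replicate 3 was far below the other WT libraries. Its mean was 109 ± 32.5 TPM in WT and 210.2 ± 40.4 TPM in PIM1+/-, a log2 fold change of 0.98 ± 0.24 (adjusted p = 0.0225), and the adjusted p was 0.0571 without PIM1+/- replicate 1 and 0.0507 without PIM1+/- replicate 2. Without a filter on low values it was 0.0713. Cyp2c66 was far rarer, at 1.16, 0.84, 0.17 and 1.67 TPM in WT and 3.55, 3, 2.23 and 1.63 TPM in PIM1+/- libraries. Its ranges touched, its log2 fold change was 0.91 ± 0.27 (adjusted p = 0.0447), and the call held in only 2 of the 8 fits without 1 library (adjusted p of 0.0733, 0.0802 and 0.0793 without WT replicates 1, 2 and 3, and of 0.109, 0.102 and 0.0749 without PIM1+/- replicates 1, 2 and 3). It was also lost with either rescaling (adjusted p = 0.0524 and 0.0547). The coding sequences of Cyp2c65 and Cyp2c66 are 96.0% identical, so the division of reads between them is uncertain, and their sum went from 110.2 ± 33.1 to 213 ± 41.2 TPM without overlap.

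Farther along, 3 of 4 adjoining genes fell and the fourth was too low to test. Cyp2c68 (ENSMUSG00000074882, chr19:39688834-39741054) measured 97.1, 85.02, 119 and 98.8 TPM in WT and 13.2, 27.7, 41.3 and 38.5 TPM in PIM1+/- libraries. Every PIM1+/- library was below every WT library, and the log2 fold change was -1.80 ± 0.30 (adjusted p = 0.00481). Cyp2c69 (ENSMUSG00000092008, chr19:39842814-39886799) fell most of all tested members, from 11.4, 7.62, 14.7 and 11.9 TPM to 0.59, 1.06, 2.10 and 1.82 TPM (-2.39 ± 0.24, adjusted p = 0.000356). Cyp2c40, between them, measured 7.38, 2.03, 3.64 and 3.87 TPM in WT and 0.20, 2.40, 0.22 and 0.37 TPM in PIM1+/- libraries, where replicate 2 overlapped the WT range. Its log2 fold change was -1.60 ± 0.39 (adjusted p = 0.0228), and the adjusted p lay between 0.051 and 0.0589 when any library other than replicate 2 of either genotype was left out. Cyp2c67 was too low to test, at 0.52, 0.51, 0.79 and 0.72 TPM in WT and 0.08, 0.30, 0.09 and 0.13 TPM in PIM1+/- libraries. Coding sequences of these 4 genes are 96.4% to 98.0% identical, so reads may have been assigned to the wrong copy. Their sum depends less on how reads were divided among them, though not fully so, since TPM are divided by gene length. That sum measured 116, 95.2, 138 and 115 TPM in WT and 14.1, 31.5, 43.7 and 40.8 TPM in PIM1+/- libraries, a ratio of means of 0.280 (0.248 to 0.333 when each library was left out). A ratio of 2 genes in one library does not depend on the scaling. Cyp2c65 over Cyp2c68, a pair chosen after its values were seen, was 0.508 to 1.47 in WT and 4.47 to 20.2 in PIM1+/- libraries, highest in PIM1+/- replicate 1. Each gene alone already separated the genotypes, in opposite directions, so their ratio had to separate them too and adds no further evidence.

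The starts of these genes are shown because Cyp2c genes of one chromosome differed in direction, though the adjoining near-identical copies did not. RefSeq windows on GRCm38.p6, from 250 bases before the annotated start to 50 after it, were found for 24 of the 29 tested members. The capitals mark CAAAGTCCA, the preferred letters of the nuclear receptor HNF4A, and each window is read 5′ to 3′ on the gene's strand.
Cyp2c68 promoter, chr19:39741052-39741351, minus strand: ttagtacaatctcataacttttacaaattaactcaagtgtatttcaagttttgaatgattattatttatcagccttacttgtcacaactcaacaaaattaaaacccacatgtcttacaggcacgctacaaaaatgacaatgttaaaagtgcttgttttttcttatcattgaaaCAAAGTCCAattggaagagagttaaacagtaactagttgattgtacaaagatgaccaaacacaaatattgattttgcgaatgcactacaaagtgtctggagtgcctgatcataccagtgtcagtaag
Cyp2c69 promoter, chr19:39886720-39887019, minus strand: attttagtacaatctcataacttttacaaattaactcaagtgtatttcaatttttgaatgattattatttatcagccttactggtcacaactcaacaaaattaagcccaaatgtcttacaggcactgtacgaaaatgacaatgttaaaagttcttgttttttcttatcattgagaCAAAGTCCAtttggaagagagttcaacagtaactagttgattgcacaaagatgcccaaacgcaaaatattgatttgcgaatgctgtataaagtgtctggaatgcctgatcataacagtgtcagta
Cyp2c40 promoter, chr19:39812765-39813064, minus strand: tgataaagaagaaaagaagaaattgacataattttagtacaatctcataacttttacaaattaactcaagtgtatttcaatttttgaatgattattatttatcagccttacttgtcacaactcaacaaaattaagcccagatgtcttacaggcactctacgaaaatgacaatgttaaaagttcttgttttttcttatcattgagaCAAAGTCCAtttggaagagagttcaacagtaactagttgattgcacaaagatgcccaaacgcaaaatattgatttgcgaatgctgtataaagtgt
Cyp2c65 promoter, chr19:39060756-39061055, plus strand: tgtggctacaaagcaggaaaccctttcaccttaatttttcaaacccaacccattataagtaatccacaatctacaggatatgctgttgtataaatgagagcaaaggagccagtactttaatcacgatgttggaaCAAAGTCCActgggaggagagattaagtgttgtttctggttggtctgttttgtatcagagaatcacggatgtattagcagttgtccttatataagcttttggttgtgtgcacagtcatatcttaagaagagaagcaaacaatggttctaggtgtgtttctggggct
Cyp2c55 promoter, chr19:39006769-39007068, plus strand: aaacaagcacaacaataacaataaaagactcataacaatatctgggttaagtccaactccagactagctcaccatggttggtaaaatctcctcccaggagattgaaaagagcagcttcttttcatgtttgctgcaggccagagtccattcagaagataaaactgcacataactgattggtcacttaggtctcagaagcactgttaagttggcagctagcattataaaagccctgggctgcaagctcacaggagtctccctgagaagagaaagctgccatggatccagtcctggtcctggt
The windows of Cyp2c68 and Cyp2c69 are 91.1% identical, those of Cyp2c40 and Cyp2c69 80.9%, those of Cyp2c65 and Cyp2c55 53.2% and those of Cyp2c65 and Cyp2c68 46.8%. Windows are cut at the annotated start, and those of Cyp2c40 and Cyp2c69 hold nearly the same letters with a shift between them. Their 80.9% therefore understates how alike the shared stretch is. CAAAGTCCA was found on the gene's own strand, as printed, at -116 in Cyp2c65, -77 in Cyp2c68, -75 in Cyp2c69 and -45 in Cyp2c40. Positions are counted from the RefSeq start, so -75 in Cyp2c69 and -45 in Cyp2c40 differ by that shift. No window found for the other tested members held CAAAGTCCA. Among these was Cyp2c66, which also rose and whose window is 77.8% identical to that of Cyp2c65. It occurs in 0.475% of all 32851 windows (both strands searched). The letters are present before a rising gene and before 3 falling ones, whose windows resemble one another, and their part in the direction was not tested. Hnf4a itself measured 266.5 ± 14.0 TPM in WT and 273 ± 10.5 TPM in PIM1+/- libraries (log2 fold change 0.03 ± 0.05, adjusted p = 0.69, and -0.01 and -0.07 with the rescalings by upper quartile and without mitochondrial transcripts). Another 7 motifs were searched on both strands. TATAAA was in windows of 8 of the 24 members (13.6% of all windows), GCGTG, the core bound by the aryl hydrocarbon receptor, in 8 (32.4%), AGGTCA, a nuclear receptor half-site, in 1 (16.3%) and an interferon response element in 2 (3.44%). None of the 24 held the direct repeat of that half-site with 3 bases between (0.00609% of all windows), a palindromic HNF1 site (0.00913%) or the CDX motif TTTATGG (2.75%). A match or its absence describes the letters of these windows and not binding.

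Of the 8 Cyp2d genes 4 fell, 2 were tested and did not pass, and 2 were too low to test. These genes sit side by side on chromosome 15 and are related to the human drug-metabolising enzyme of the same subfamily. Cyp2d34 (ENSMUSG00000094559, chr15:82615965-82620946), the most abundant, measured 168, 153, 180.2 and 192 TPM in WT and 67.8, 106, 95.6 and 99.8 TPM in PIM1+/- libraries. All PIM1+/- libraries were below all WT libraries (log2 fold change -0.92 ± 0.13, adjusted p = 0.00252). Cyp2d22 (ENSMUSG00000061740, chr15:82370527-82380260) went from 12.7, 10.4, 9.55 and 12.4 TPM to 4.98, 4.89, 5.10 and 5.52 TPM (-0.99 ± 0.10, adjusted p = 0.000382), with little spread among the PIM1+/- libraries. Cyp2d12 went from 21.7 ± 6.12 to 9.61 ± 3.07 TPM (-1.11 ± 0.26, adjusted p = 0.0199, and 0.0559 and 0.057 without WT replicates 1 and 4). Cyp2d9 went from 15.5 ± 3.95 to 7.27 ± 2.53 TPM (-1.02 ± 0.24, adjusted p = 0.0203, and 0.0579, 0.0589 and 0.0516 without WT replicate 1, WT replicate 4 and PIM1+/- replicate 2).

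The other tested Cyp2d genes did not pass. Cyp2d10 measured 52.1, 39.6, 42.9 and 43.2 TPM in WT and 7.19, 23.2, 24.1 and 31.2 TPM in PIM1+/- libraries, without overlap but with PIM1+/- replicate 1 far below the rest (log2 fold change -1.18 ± 0.36, adjusted p = 0.0527). Without that library the adjusted p was 0.00697 at a log2 fold change of -0.75, and it was 0.0328 without PIM1+/- replicate 4, and 0.0494 and 0.0358 with upper quartile scaling and without mitochondrial transcripts. Cyp2d26, at the far end of the cluster, was at 27.3 ± 5.82 TPM in WT and 34.6 ± 9.26 TPM in PIM1+/- libraries (0.32 ± 0.21, 95% interval -0.16 to 0.79, adjusted p = 0.334). Cyp2d11 and Cyp2d40 did not exceed 0.18 and 0.22 TPM. Coding sequences of Cyp2d9, Cyp2d10 and Cyp2d11 are 91.8% to 94.4% identical, and their sum went from 60.04 ± 8.85 to 28.7 ± 12.5 TPM without overlap. Over all 8 genes the sum was 294 ± 30.5 TPM in WT and 170.4 ± 33.6 TPM in PIM1+/- libraries, a ratio of 0.580 (0.553 to 0.636 when each library was left out).

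**Figure D3:**
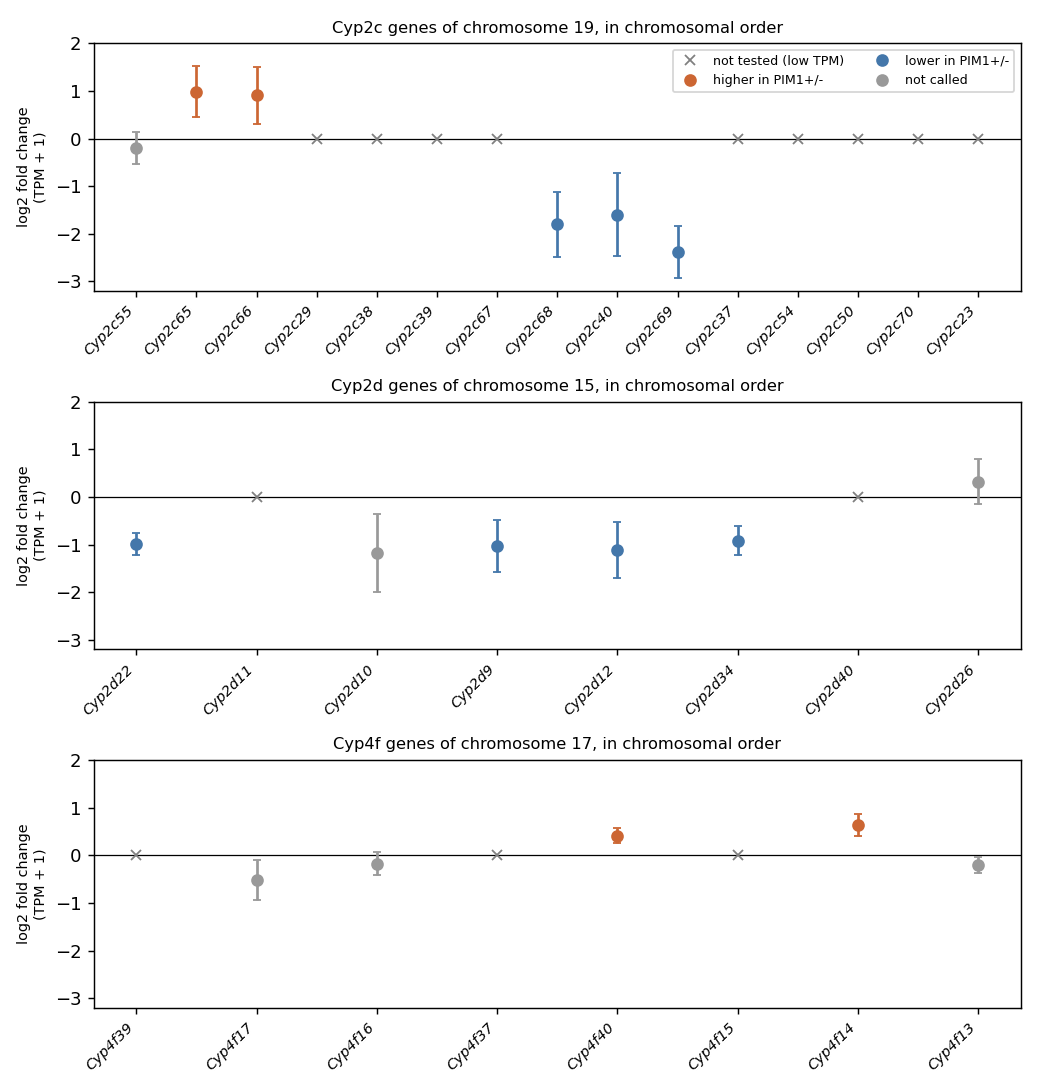
Log2 fold change (PIM1+/- over WT, on TPM + 1, with 95% interval) of the Cyp2c, Cyp2d and Cyp4f genes in their order along chromosomes 19, 15 and 17, with equal spacing between genes and crosses for genes too low to test. The rising Cyp2c65 and Cyp2c66 are neighbours, as are the falling Cyp2c68, Cyp2c40 and Cyp2c69.

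Genes of fatty acid and eicosanoid oxidation in families Cyp2j and Cyp4 were divided. Cyp2j6 (ENSMUSG00000052914, chr4:96516138-96553661), from a subfamily of arachidonic acid epoxygenases, rose from 22.4, 20.2, 20.9 and 21.8 TPM to 40.0, 34.6, 32.9 and 30.4 TPM (log2 fold change 0.66 ± 0.08, adjusted p = 0.00136). Its PIM1+/- libraries lay well above the narrow WT range. Cyp2j9 was near the limit of the test, at 0.958 ± 0.0991 TPM in WT and 1.46 ± 0.227 TPM in PIM1+/- libraries (0.33 ± 0.12, adjusted p = 0.101), and the other 6 Cyp2j genes were not tested.

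Of 9 Cyp4f genes 5 were tested and 2 rose. Cyp4f14 (ENSMUSG00000024292, chr17:32905070-32917342), which in mice inactivates leukotrienes by hydroxylation, measured 67.8, 63.0, 50.2 and 57.8 TPM in WT and 93.5, 93.3, 107 and 81.0 TPM in PIM1+/- libraries (0.64 ± 0.11, adjusted p = 0.00443). Cyp4f40 (ENSMUSG00000090700, chr17:32658900-32676914) rose from 46.2, 40.7, 40.9 and 45.4 TPM to 57.1, 62.7, 54.1 and 58.7 TPM (0.42 ± 0.07, adjusted p = 0.00398). Neither gene overlapped between genotypes. Cyp4f13 (58.0 ± 2.43 against 50.7 ± 4.98 TPM, adjusted p = 0.101, and 0.0249 when rescaled without mitochondrial transcripts), Cyp4f16 (42.3 ± 7.07 against 37.0 ± 1.86 TPM, adjusted p = 0.295) and Cyp4f17 (2.42 ± 0.519 against 1.41 ± 0.506 TPM, adjusted p = 0.0843) did not pass. Without PIM1+/- replicate 3 the adjusted p of Cyp4f13 was 0.0401, and without WT replicate 2 that of Cyp4f17 was 0.0462. The coding sequence of Cyp4f16 is 96.1% identical, over 71.6% of its length, to that of Cyp4f37, which did not exceed 1.59 TPM. The summed Cyp4f level was 207 ± 16.4 TPM in WT and 242 ± 12.5 TPM in PIM1+/- libraries, a ratio of 1.17, or 1.09 after rescaling without mitochondrial transcripts.

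Cyp4b1 and Cyp4v3, fatty acid hydroxylases of other Cyp4 subfamilies, fell. Cyp4b1 measured 13.5, 14.2, 4.42 and 19.3 TPM in WT and 1.12, 3.27, 4.5 and 5.5 TPM in PIM1+/- libraries. WT replicate 3 lay among the PIM1+/- values, the log2 fold change was -1.56 ± 0.45 (adjusted p = 0.0418), and the call held only without WT replicate 3 or PIM1+/- replicate 4 (adjusted p between 0.059 and 0.104 without each of the other 6 libraries). Cyp4v3 went from 4.42 ± 0.572 to 2.38 ± 0.675 TPM without overlap (-0.70 ± 0.16, adjusted p = 0.0175, and 0.0529 without WT replicate 1 and 0.0606 without a filter).

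**Figure D4:**
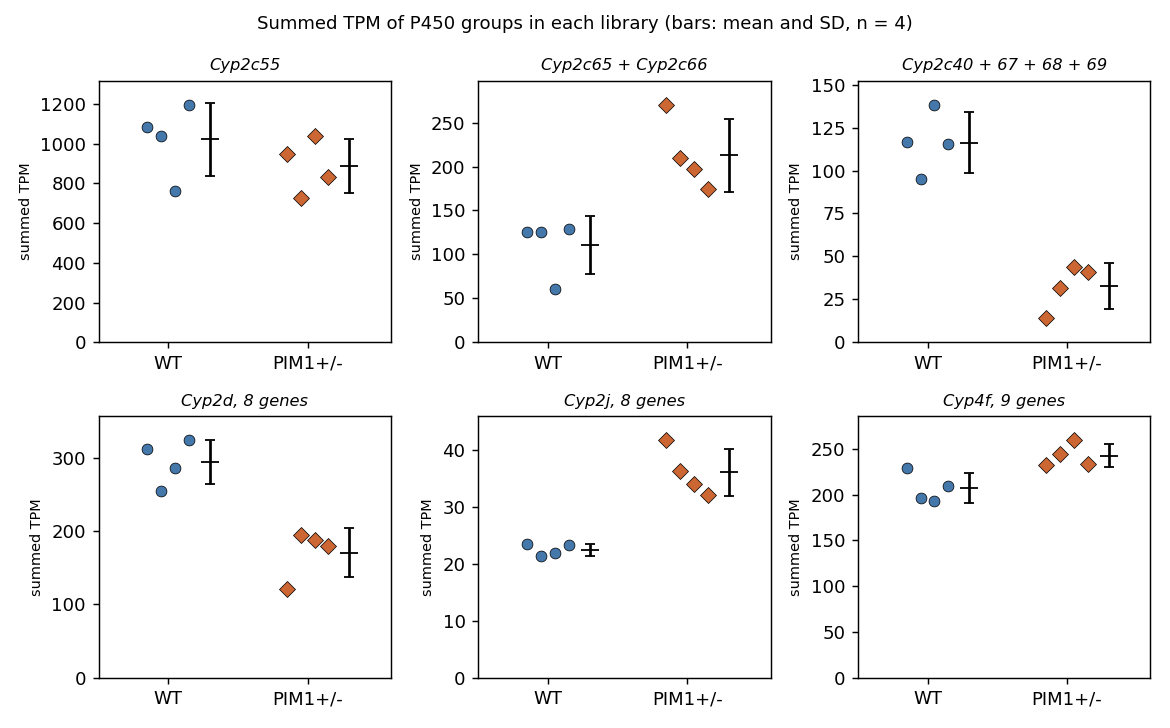
Summed TPM in each library of 6 groups of P450 genes, with WT circles, PIM1+/- diamonds and the mean ± SD (n = 4) beside them, on axes that start at 0. Cyp2c55 overlaps between genotypes, the sums of Cyp2c65 with Cyp2c66, Cyp2j and Cyp4f lie higher in PIM1+/- libraries, and those of the 4 near-identical Cyp2c genes and of Cyp2d lie lower.

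Among the remaining genes for foreign compounds, Cyp2f2 (ENSMUSG00000052974, chr7:27119909-27133660), known in mice for activating naphthalene in the airway, fell from 27.0, 16.3, 26.1 and 23.1 TPM to 1.94, 9.30, 7.29 and 6.41 TPM (-1.85 ± 0.35, adjusted p = 0.00803). Every PIM1+/- library was below every WT library, with replicate 1 lowest. Cyp2s1, an enzyme of epithelia outside the liver, measured 62.2 ± 6.15 TPM in WT and 51.1 ± 2.57 TPM in PIM1+/- libraries and fell (-0.27 ± 0.08, adjusted p = 0.0376). Its call held only without WT replicate 2, with adjusted p from 0.0595 to 0.0875 without each of the other libraries. Cyp3a13, the only Cyp3a gene expressed above the test limit and one of the intestine, was at 51.4 ± 5.66 and 60.5 ± 6.64 TPM (0.23 ± 0.10, adjusted p = 0.142). The pseudogene Gm15502 overlaps Cyp3a13 on the same strand and reached 6.22 TPM. Cyp2w1, known from human colon tumours, was at 3.04 ± 0.848 and 2.83 ± 0.604 TPM (adjusted p = 0.831).

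Sterol and vitamin genes were few. Cyp27a1 (ENSMUSG00000026170, chr1:74713574-74737892), a mitochondrial sterol hydroxylase of bile acid synthesis, fell from 11.1, 10.01, 10.7 and 12.1 TPM to 4.43, 8.23, 8.41 and 7.11 TPM (-0.61 ± 0.17, adjusted p = 0.0365). The genotypes did not overlap, but the adjusted p was 0.0843, 0.0516, 0.0726 and 0.0917 without WT replicates 1 to 4 and 0.0618 without PIM1+/- replicate 4. Cyp39a1, an oxysterol hydroxylase, was at 10.1 ± 0.621 and 8.92 ± 0.721 TPM (adjusted p = 0.212). Cyp2r1, a vitamin D hydroxylase, was at 1.20 ± 0.159 and 1.08 ± 0.201 TPM (adjusted p = 0.71), and Cyp20a1, with no settled substrate, at 9.95 ± 1.19 and 10.2 ± 1.29 TPM (adjusted p = 0.866).

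Partners and sensors of the P450 system were examined as lists. None of the 10 tested electron partners passed (limma, while 2 fell after rescaling without mitochondrial transcripts, and 1 with upper quartile scaling or without WT replicate 2). Over all genes 2217, 1520 and 1054 fell in these fits, in that order, against 1090 in the main fit. For the electron partners as tested in the main fit, the values were as follows. Their median log2 fold change was 0.05, Por was at 68.5 ± 6.64 and 72.0 ± 9.73 TPM (0.07 ± 0.11, 95% interval -0.18 to 0.31), and the electron carrier genes Cyb5a and Cyb5b at 143 ± 8.5 and 148 ± 5.58, and 113 ± 4.71 and 117 ± 4.59 TPM. None of the 8 haem synthesis genes passed either (median -0.04), including Alas1, the rate-limiting enzyme, at 201 ± 43.4 and 239.5 ± 11.0 TPM, whose adjusted p was 0.00959 without WT replicate 2. The lowest adjusted p in these lists was that of Fdxr, which passes electrons to mitochondrial ferredoxin (log2 fold change -0.37 ± 0.12, adjusted p = 0.0698). At an unadjusted p below 0.05 stood 3 electron partners and 1 haem synthesis gene, with no share over all genes computed at that level.

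Of 19 tested xenobiotic and lipid sensors 2 rose and 1 fell, with a median log2 fold change of -0.04. This count is near the background, since 17.5% of all tested genes passed in either direction. At an unadjusted p below 0.05 stood 11 of the 19, but the 17.5% is for adjusted p. No share over all genes was computed for unadjusted p, so counts at that level have no background beside them. Pparg, a fatty acid receptor, rose from 64.1, 59.6, 49.9 and 64.7 TPM to 128, 104, 109 and 91.5 TPM (0.85 ± 0.11, adjusted p = 0.00165). Nr1h4, the bile acid receptor FXR, with 60.96 ± 12.2 TPM in WT and 92.5 ± 7.95 TPM in PIM1+/- libraries, rose as well (0.61 ± 0.13, adjusted p = 0.0152). Nr1i2, the xenobiotic receptor PXR, fell from 44.7 ± 1.71 to 38.2 ± 2.91 TPM (-0.22 ± 0.07, adjusted p = 0.0481), and the adjusted p was between 0.0571 and 0.124 in 7 of the 8 fits without 1 library. Rescaled without mitochondrial transcripts 6 sensors fell, and falls over all genes went from 1090 to 2217 in that fit. The aryl hydrocarbon receptor gene Ahr was at 4.28 ± 0.253 and 3.82 ± 0.343 TPM (adjusted p = 0.368), Vdr at 159 ± 12.8 and 155 ± 10.9 TPM and Nfe2l2 at 143 ± 7.96 and 159.5 ± 8.96 TPM, none past the threshold. The 3 tested epoxide hydrolases, which open the epoxides that P450 enzymes make, did not pass (all 3 were at an unadjusted p below 0.05), with Ephx1 at -0.57 ± 0.19, Ephx2 at -0.37 ± 0.12 and Ephx4 at -0.44 ± 0.14 (adjusted p = 0.0674, 0.0569 and 0.0572), and all 3 passed after rescaling without mitochondrial transcripts. The same rescaling gave the 2217 falls over all genes. Ephx4 also passed without PIM1+/- replicate 1 and Ephx1 without PIM1+/- replicate 4. Hsd11b2, which inactivates glucocorticoids, fell from 181 ± 4.46 to 116 ± 17.2 TPM (-0.65 ± 0.10, adjusted p = 0.00325), whereas Nr5a2 and Stard3 of the steroidogenesis list did not pass (adjusted p = 0.127 and 0.828) and Nr5a1 was listed at 0. Without PIM1+/- replicate 4 Nr5a2 fell. Cyp51, the sterol demethylase outside the name pattern, was at 46.4 ± 2.81 and 56.1 ± 5.85 TPM (0.26 ± 0.08, adjusted p = 0.052) and passed without PIM1+/- replicate 3, while Tbxas1 and Ptgis were too low to test.

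Markers of position along the gut and of other cells moved with the genotype beside these P450 genes, and their part in the results was not tested. Of 8 posterior Hox markers of distal colon 5 were tested, 3 fell and none rose. Hoxd11 (log2 fold change -0.64 ± 0.23, limma adjusted p = 0.0868) and Hoxa11 (0.09 ± 0.20, adjusted p = 0.8) did not pass. Summed, the 8 markers measured 148 to 195 TPM in WT and 40.8 to 93.9 TPM in PIM1+/- libraries, with Hoxb13 the most abundant and Hoxc10 listed at 0. Hoxb13 measured 120, 103, 137 and 112 TPM in WT and 26.6, 57.5, 56.7 and 60.5 TPM in PIM1+/- libraries, lowest in replicate 1. That same library was the lowest PIM1+/- library for 11 of the 12 falling P450 genes and for 16 of the 29 tested members. Without it 3 P450 genes rose and 10 fell, while over all genes 829 rose and 779 fell. How often each library was lowest over all tested genes was not computed, so these counts have no background. Among the WT libraries replicate 2 was lowest for 17 of the 29 tested members. T and NK cell markers summed to 10.2 to 23.3 TPM in WT and 40.5 to 101 TPM in PIM1+/- libraries, with 7 of 9 tested rising. Myeloid and mast cell markers summed to 46.6 to 54.6 and 66.8 to 86.8 TPM, with 4 of 6 tested rising. Small intestine markers summed to 484.5 to 627.5 TPM in WT and 712 to 878.5 TPM in PIM1+/- libraries, most of it Fabp2, which the colon also expresses. Of 6 tested, Fabp2 rose and the other 5 did not pass. These were Rbp2 at 41.4 ± 4.86 and 33.0 ± 8.93 TPM, Fabp6 at 12.3 ± 3.86 and 10.9 ± 3.84 TPM, Slc10a2 at 10.5 ± 4.76 and 14.7 ± 3.25 TPM, Apob at 9.10 ± 2.29 and 9.30 ± 3.76 TPM, and Sis at 1.37 ± 0.538 and 0.595 ± 0.449 TPM (log2 fold change -0.58 ± 0.24, adjusted p = 0.136). Apoa4 and Lct did not exceed 0.51 and 0.19 TPM. Of the 8 hepatocyte markers 3 were tested, and they differed in sign. Ttr fell from 31.7 ± 8.71 to 14.7 ± 4.50 TPM, Tat was at 14.7 ± 0.556 and 14.1 ± 3.56 TPM (adjusted p = 0.73), and Cps1 was at 3.88 ± 0.220 and 6.45 ± 2.12 TPM (log2 fold change 0.56 ± 0.20, adjusted p = 0.0897). Ahsg was listed at 0, and Fgb, Serpina1a and Alb did not exceed 0.11, 0.10 and 1.23 TPM. B and plasma cell markers summed to at most 14.5 TPM, endothelial markers to at most 5.76 TPM, fibroblast markers to at most 2.17 TPM, smooth muscle markers to at most 1.49 TPM and steroidogenic cell markers to at most 1.36 TPM, and limma called none of them, nor did any of the few tested have an unadjusted p below 0.05.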

How the data were processed

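Colon epithelial RNA from 4 WT and 4 PIM1+/- libraries was analysed from 1 deposited table of TPM, quantified by the authors with RSEM according to the series' design. HISAT2, StringTie and edgeR appear in the submitters' processing notes without a stated role, beside the build GRCm38.p6. The sources used here do not give the annotation release, strand setting or depth. All 8 per-sample columns were used (0 left out). TPM were rounded to hundredths by the authors.

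For the 12760 genes that reached 1 TPM in 4 or more libraries, log2(TPM + 1) was fitted on genotype with limma 3.58.1 in R 4.3.3 (trend, two-sided, Benjamini-Hochberg, threshold 0.05), and checked on simulated data. Single genes also got an exact permutation test of mean TPM, whose smallest p is 0.0286. By that test p was 0.0571 for Cyp2c40 and Cyp2c66, 0.0857 for Cyp4b1 and 0.0286 for each other called member, unadjusted. Sums over genes were not tested. Named are all tested members (the rule took those called, the 12 most abundant and the 2 closest to the threshold, and the rest are added for completeness), and of each pathway list its calls and, mostly, its most abundant genes. Members and lists were chosen with earlier results of these data known. Coordinates come from GENCODE M21, promoter sequences from RefSeq on GRCm38.p6, and identities of coding sequence from BLAST+ 2.17.0. Mitochondrial transcripts were 37 encoded genes and 16 nuclear copies (at least 90% identity over 80% of length). Alternatives were other scalings, filters, pseudocount and threshold, no trend, a replicate block, and leaving out each library. Fdx1l was not matched in the table. Figures were drawn with matplotlib 3.10.9.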

Additional observations from a re-analysis of the deposited data

Results flagged for a closer look

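In groups of 4 libraries, 1 library stood far from the other 3 for 4 genes, among 88 gene and genotype groups searched. Chance flags about 1 in 20 such groups. Cyp2c40 measured 2.40 TPM in PIM1+/- replicate 2, far above the other PIM1+/- libraries, and its coding sequence is near-identical to Cyp2c68 and Cyp2c69. Cyp2c65 measured 60.5 TPM in WT replicate 3, far below the other WT libraries, as did its sum with Cyp2c66, at 60.7 TPM (60.65). Cyp2s1, the only Cyp2s gene, measured 47.3 TPM in PIM1+/- replicate 1, below the other 3. Cyp4f17 measured 1.64 TPM in WT replicate 2, below the other WT libraries.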

How the results depend on the processing

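The depth behind TPM is unknown, and low members near 1 TPM depend on the filter and pseudocount. The 24 P450 genes recomputed singly kept their direction under every alternative run, and the calls of Cyp2c68, Cyp2c69, Cyp2d22, Cyp2d34, Cyp2f2, Cyp2j6, Cyp4f14 and Cyp4f40 held under all of them. The count of rising P450 genes was 3 without a filter and at a threshold of 0.01, and 3 to 5 when each library was left out. The count of falling ones was 6 without a filter, 6 with the replicate block, 5 at a threshold of 0.01 and 5 to 11 with each library left out. The replicate numbers did not pair the libraries (correlations of same-numbered deviations from -0.136 to 0.032, and no library matched its own number best). With the block the calls of Cyp2c40, Cyp2c66, Cyp2d12, Cyp2s1, Cyp4b1, Cyp4v3 and Cyp27a1 were lost (adjusted p from 0.0514 to 0.101). Over all genes, rises numbered 471 at 0.01, 760 with the block, 730 rescaled without mitochondrial transcripts and 746 to 1004 with each library left out, and falls numbered 365, 689, 2217 and 616 to 1054, with 666 falling and 773 rising without a filter. Falls of sensors numbered 4 with upper quartile scaling, 6 without mitochondrial transcripts, 0 without a filter, 0 with the block and 0 at 0.01, and 0 to 1 with each library left out, and 1 sensor rose at 0.01. Falls of electron partners numbered 1 with upper quartile scaling, 2 without mitochondrial transcripts, 1 with the block and 0 to 1 with each library left out. With each library left out, 0 to 1 haem synthesis genes rose, 0 to 1 epoxide hydrolases fell, 1 to 2 steroidogenesis genes fell and 0 to 1 P450 genes outside the name pattern rose, the last also 1 at a mean of at least 5 TPM. Without mitochondrial transcripts 1 haem synthesis gene, 3 epoxide hydrolases and 2 steroidogenesis genes fell, and with upper quartile scaling 2 epoxide hydrolases fell. Uncalled genes that changed sign were Alad (-0.042 with upper quartile scaling, -0.10 without mitochondrial transcripts and -0.030 to 0.039 with each library left out), Hnf4a (-0.012 and -0.074 with the same scalings), Cyb5a (-0.058) and Cyb5b (-0.054) without mitochondrial transcripts, and, with each library left out, Stard3 (-0.071 to 0.046) and Vdr (-0.079 to 0.0018). The cause of these shifts was not tested.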
